A study of Saccharomyces cerevisiae BY4741 with 16 samples.

Results

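The 9 genes described here encode yeast proteins that write or erase methylation of histone H3 on K36, a paralog of an eraser, and the subunits of a deacetylase complex that docks on it. They were chosen by systematic name in the gene-level table: *SET2* (YJL168C), *RPH1* (YER169W), *JHD1* (YER051W), *GIS1* (YDR096W), *RCO1* (YMR075W), *EAF3* (YPR023C), *RPD3* (YNL330C), *SIN3* (YOL004W) and *UME1* (YPL139C). All 9 were among the 5218 genes with values, and all 9 passed the filter on low signal for both marks, so no member was dropped. The values below are the chromatin marks carried by these genes themselves, not the activity of their products.

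Set2 is the methyltransferase that places H3K36me3. It travels with elongating RNA polymerase II (RNAPII), bound to the phosphorylated tail of its largest subunit, so the mark collects over the bodies of transcribed genes. The Rpd3S complex, made of Rpd3, Sin3, Ume1, Rco1 and Eaf3, docks on K36-methylated nucleosomes and deacetylates histones behind the polymerase, which keeps cryptic promoters inside genes silent. Rph1 and Jhd1 are JmjC-domain enzymes that remove K36 methyl groups, and Gis1 is a JmjC-domain paralog of Rph1. H3K4me3, placed by the Set1 complex COMPASS, marks the starts of transcribed genes.

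Both marks were measured by chromatin immunoprecipitation and sequencing in log-phase *Saccharomyces cerevisiae* grown in YPD, with samples 0, 20, 40 and 60 min after rapamycin was added to 1 ug/mL, and the 0 min sample is the baseline of each mark. Every sample had the same anchor-away background in BY4741, a system in which rapamycin binds a tagged target in the nucleus to a ribosomal anchor and the anchor carries it out. The genotype was MATa with the alleles his3D1, leu2D0 and ura3D0, together with tor1D1 and fpr1D, which make the cells insensitive to rapamycin itself, and the anchor RPL13-2xFKBP12-NATMX6. It names no tagged RNAPII subunit, so removal of RNAPII is taken from the series design, which asks what happens to the marks once it has left. The labels list 8 immunoprecipitated and 8 input libraries, with *Schizosaccharomyces pombe* cells added at 25% as a spike-in.

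There was 1 immunoprecipitated library per mark and time, so no value has a replicate error, no test of a difference between times could be made, and the statements below describe these libraries. Deposited signal summed to between 21240 and 24034 for H3K4me3 and between 4172 and 6655 for H3K36me3, and the reads behind each value are unknown. The labels were checked at *FPR1*, which the genotype gives as deleted. Over the 4 times it was listed at 2.26, 1.34, 3.86 and 1.04 in H3K4me3, each below the median of all genes. In H3K36me3 it was listed at 1.21, 0.0335, 0.240 and 0.185, against medians of 1.08, 0.824, 0.852 and 0.700. The 0 min H3K36me3 value, in the baseline library, was thus above the median, and the later values were far below it. These values do not show the deletion alike in every library, and the reason was not tested. Scale matters to every direction below. With every library rescaled to hold the median of the 5% of genes with the lowest mean signal at its 0 min value, H3K36me3 changes moved up by 0.26, 0.23 and 0.61 log2 units at 20, 40 and 60 min, and H3K4me3 changes by 0.06, 0.12 and 0.30. Changes are therefore also given relative to the median gene, which such a factor leaves nearly as it was.

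*SET2* (chromosome X, 102227-104428, R64, the assembly of sacCer3) carried H3K36me3 signal at percentile 93.9 of all genes at 0 min and was the member with the lowest H3K36me3 change. Its H3K36me3 signal was 2.79, 1.35, 1.61 and 1.23 at 0, 20, 40 and 60 min. The 0 min value was thus the highest of the 4, and the other 3 lay close together. The 20 min value was 48.4% of the 0 min value and the 60 min value 44.1%. On the log2 scale the changes were -1.04, -0.79 and -1.17, which is -0.63, -0.43 and -0.53 relative to the median gene. At 20 min that placed *SET2* at percentile 4.5 of 4861 genes, and at 60 min at percentile 9.08. With the scaling to the lowest 5% of genes the 60 min change remained negative, at -0.57. *SET2* started in the highest 20% of genes by H3K36me3, where the median change was -0.61 at 20 min and -0.80 at 60 min.

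H3K4me3 on *SET2* did not follow. It was 5.68, 5.51, 5.74 and 5.05 at the 4 times, with the 60 min value the lowest. The change at 60 min was -0.17, 0.01 above the median gene, and turned to 0.13 with the scaling to the lowest 5% of genes. The writer's own gene therefore had a large H3K36me3 difference from 0 min and an H3K4me3 difference like that of the median gene. From 20 to 60 min its H3K36me3 change was -0.13, at percentile 63.5, so the large difference lies between the single 0 min library and the later ones. The median gene was at -0.41 at 20 min. The part of the 0 min library in this difference was not tested.

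**Figure D1:**
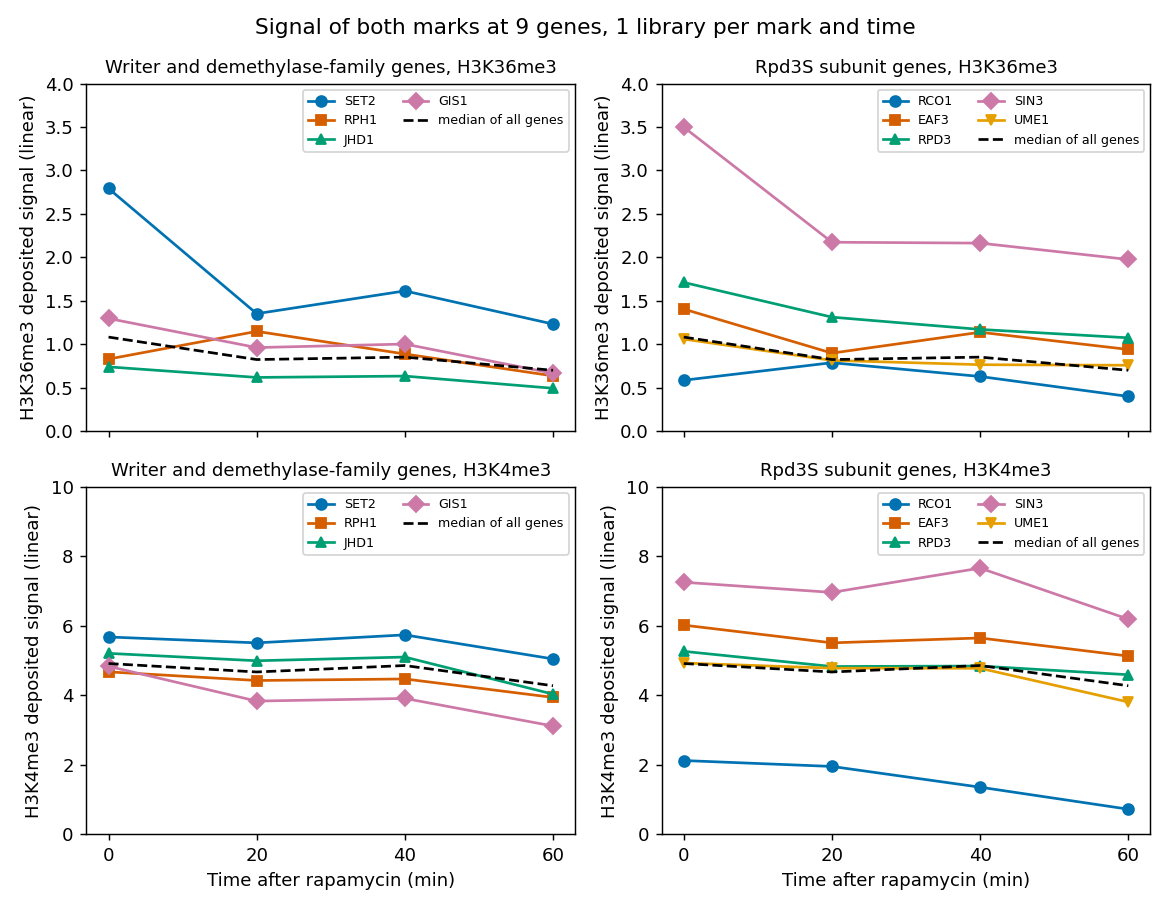
Deposited signal (linear) of H3K36me3 (top) and H3K4me3 (bottom) against time after rapamycin in minutes, with 1 library per point and the median of all genes dashed. *SET2* and *SIN3* start highest in H3K36me3 and stand well lower at 20 min, *RPH1* and *RCO1* are higher at 20 min than at 0 min, and *RCO1* has the lowest H3K4me3 throughout, 0.721 at 60 min.

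The demethylase-family genes differed from one another, most clearly the paralogs *RPH1* and *GIS1*. *RPH1* (chromosome V, 523369-525759) encodes the H3K36me3 demethylase, which is also a zinc-finger repressor of transcription. Its own H3K36me3 signal was 0.829, 1.15, 0.888 and 0.636 at the 4 times. The 20 and 40 min values were above the 0 min value and the 60 min value was below it. The changes were 0.46, 0.10 and -0.38. At 20 min it ranked 53rd from the highest of 4861 genes, 0.88 above the median gene, and at 60 min it was still 0.27 above it. As deposited, 11.6% of genes were higher at 20 min than at 0 min, as were 14.1% of those that began in the same 20% band of signal, or 15.8% with bands set over all genes and no filter. The 60 min change of *RPH1* turned to 0.23 with the scaling to the lowest 5% of genes.

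*GIS1* (chromosome IV, 637139-639823), which encodes a zinc-finger factor of nutrient-limited growth, had H3K36me3 of 1.30, 0.961, 1.00 and 0.665. Its lowest value was at 60 min, and its changes of -0.43, -0.37 and -0.95 stood at -0.01 relative to the median gene at 20 and 40 min and at -0.31 at 60 min. Under the scaling to the lowest 5% of genes the 60 min change was -0.35. *JHD1* (chromosome V, 254656-256134), which encodes a demethylase of lower K36 methylation states, had 0.739, 0.618, 0.633 and 0.493. It stayed close to the median gene, at 0.16, 0.14 and 0.07 above it, and its 60 min change of -0.57 turned to 0.03 under that scaling.

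In H3K4me3 too, the change at each time was lower at *GIS1* than at *RPH1*. *GIS1* had 4.83, 3.83, 3.91 and 3.11 at the 4 times, so a first difference stood between 0 and 20 min and a second between 40 and 60 min. Its changes were -0.33, -0.30 and -0.63, at percentiles 2.81, 1.27 and 0.881 of 4826 genes. *RPH1* had 4.67, 4.42, 4.47 and 3.94, and a 60 min change of -0.24. *JHD1* had 5.21, 4.99, 5.10 and 4.03, with most of its change of -0.36 between 40 and 60 min. The median gene too had its H3K4me3 change late, at -0.002 at 40 min and -0.18 at 60 min. Scaled to the lowest 5% of genes, the 60 min H3K4me3 changes were -0.33 for *GIS1*, -0.07 for *JHD1* and 0.05 for *RPH1*.

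**Figure D2:**
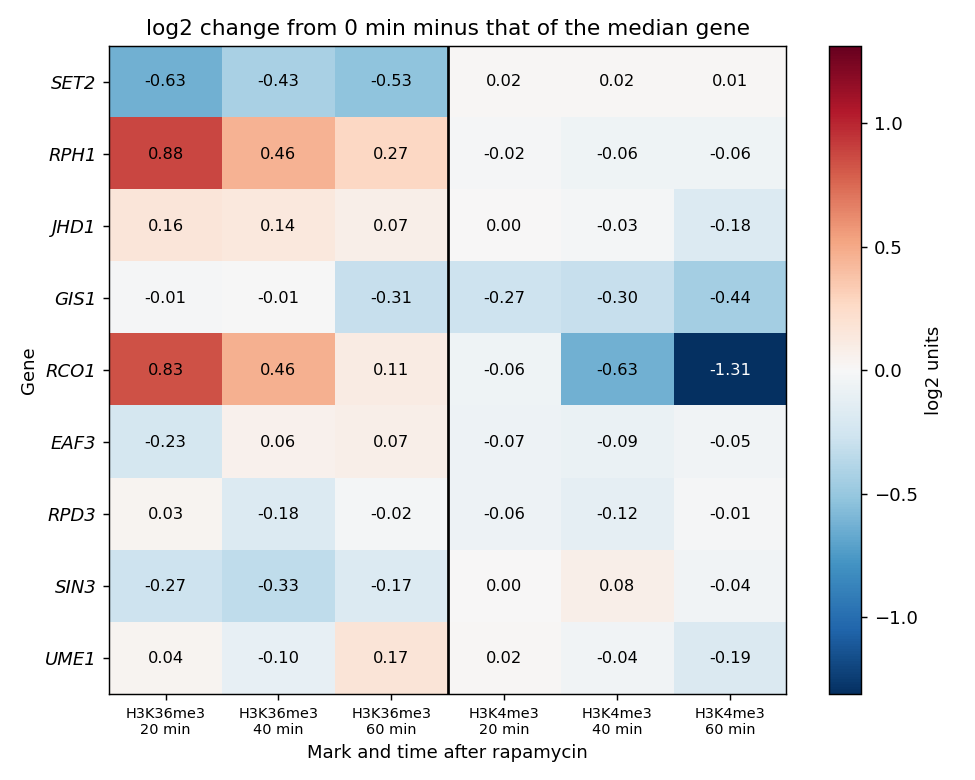
The log2 change from 0 min minus that of the median gene of the same mark, for each gene (down) at 20, 40 and 60 min (across); red is above the median gene and blue below it. *RPH1* and *RCO1* stand 0.88 and 0.83 above the median gene in H3K36me3 at 20 min, *SET2* stands at -0.63, and *RCO1* reaches -1.31 in H3K4me3 at 60 min.

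Of the 5 Rpd3S genes, *SIN3* carried the highest signal of both marks among the 9 members at every time. *SIN3* (chromosome XV, 316938-321548) encodes the scaffold that holds the deacetylase, and is shared with the larger Rpd3L complex. Its H3K36me3 was 3.50, 2.17, 2.16 and 1.98. Like *SET2*, it had its highest value at 0 min and 3 later values near each other. Its changes were -0.68, -0.69 and -0.82, against -0.41, -0.36 and -0.65 for the median gene and -0.61, -0.55 and -0.80 for the median of the highest 20% of genes by 0 min signal, where *SIN3* began. Its H3K4me3 was 7.25, 6.96, 7.66 and 6.19, highest at 40 min, and its 60 min change of -0.23 turned to 0.07 under the scaling to the lowest 5% of genes.

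In H3K36me3 at 20 and 40 min, the catalytic subunit gene *RPD3* and the genes of the subunits Ume1 and Eaf3 stood nearer to the median gene than *SIN3*. Relative to the median gene at 20, 40 and 60 min, *RPD3* was at 0.03, -0.18 and -0.02. *UME1* was at 0.04, -0.10 and 0.17, *EAF3* at -0.23, 0.06 and 0.07, and *SIN3* at -0.27, -0.33 and -0.17. At 60 min *UME1* was thus about as far from the median gene as *SIN3*, on the other side. *RPD3* (chromosome XIV, 18001-19302) had H3K36me3 of 1.71, 1.31, 1.17 and 1.07, lower at each successive time, and a 60 min change of -0.67. *UME1* (chromosome XVI, 289669-291051), whose product is a WD-repeat subunit, had 1.06, 0.814, 0.764 and 0.758. From 40 to 60 min its change was -0.01, while the median gene stood at -0.28. *EAF3* (chromosome XVI, 608826-610031) encodes the chromodomain protein that reads K36 methylation, and is also part of the NuA4 acetyltransferase. Its H3K36me3 was 1.40, 0.898, 1.14 and 0.940, lowest at 20 min. Scaled to the lowest 5% of genes, the 60 min changes were -0.06 for *RPD3*, 0.13 for *UME1* and 0.03 for *EAF3*.

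H3K4me3 of these 3 genes was lowest at 60 min, as was the median of all genes. *EAF3* had 6.02, 5.51, 5.65 and 5.13, a 60 min change of -0.23. *RPD3* had 5.26, 4.83, 4.84 and 4.59, a change of -0.20. *UME1* had 4.93, 4.78, 4.78 and 3.81, a change of -0.37, with nearly all of it between 40 and 60 min. That timing is shared with the median gene, which stood at -0.002 at 40 min and -0.18 at 60 min. Under the scaling to the lowest 5% of genes these became 0.07, 0.10 and -0.07.

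*RCO1* (chromosome XIII, 413982-416036), which encodes the PHD-finger subunit found in Rpd3S and not in Rpd3L, had the lowest H3K4me3 change at 60 min of all genes. Its H3K4me3 signal was 2.12, 1.95, 1.35 and 0.721 at the 4 times. The 0 and 20 min values were close, and each later value was lower than the one before. The changes were -0.12, -0.63 and -1.50, so that 34.0% of the 0 min signal was left at 60 min. It ranked 4th from the lowest of 4826 genes at 40 min and 1st at 60 min, where *ECM33* came next at -1.21 and *SWM1* followed at -1.17. It was also the lowest with no filter and in the change from 20 to 60 min. With the scaling to the lowest 5% of genes it stood lowest at -1.21, and with a pseudocount of 10% at -1.11.

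*RCO1* had little H3K4me3 to begin with, at percentile 11.7 of all genes at 0 min. Of the 613 genes with the same 0 min signal or less, taken with no filter since the filter uses the later times too, the median change was -0.27, the quartiles were -0.39 and -0.11, and the next lowest after *RCO1* was at -0.95. The pseudocount understates changes of the lowest of these genes. This set, like the bands with no filter, was chosen after the data were seen. The reads behind such a level are unknown, and their part in the result was not tested.

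H3K36me3 on *RCO1* ran differently. It was 0.585, 0.787, 0.629 and 0.399, above the 0 min value at 20 and 40 min and below it at 60 min. The changes were 0.42, 0.10 and -0.54, and at 20 min *RCO1* ranked 67th from the highest of 4861 genes, 0.83 above the median gene. It began in the lowest 20% of genes past the filter, of which 27.1% were higher at 20 min than at 0 min, but with no filter in the second such band, that of *RPH1*, of which 15.8% were. From 20 to 60 min its change was -0.96, at percentile 1.24, and that of *RPH1* was -0.84, at percentile 2.5, so both genes were nearer to the median gene at 60 min than at 20 min. The 20 min library stands in both of these comparisons.

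**Figure D3:**
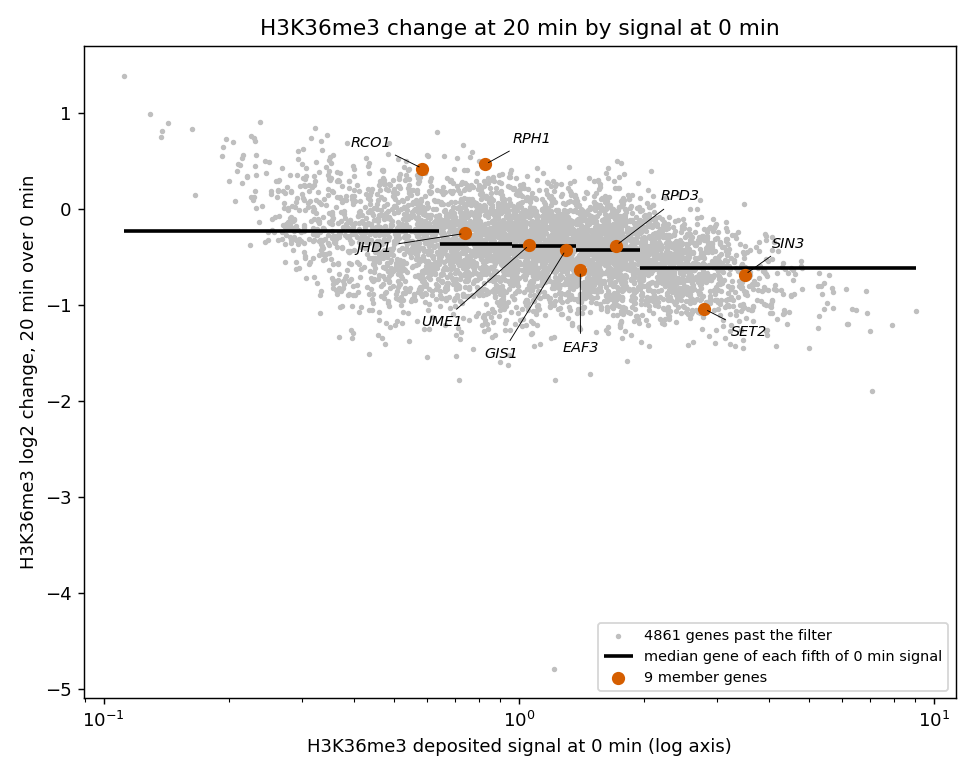
H3K36me3 log2 change at 20 min over 0 min (vertical) against H3K36me3 signal at 0 min (horizontal, log axis) for 4861 genes past the filter (grey) and the 9 genes described (orange), with the median of each 20% band of 0 min signal in black. *RPH1* at 0.46 and *RCO1* at 0.42 lie near the upper edge of genes with similar signal, and *SET2* at -1.04 lies below the median of its band, -0.61.

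The neighbours of *RCO1* did not share its H3K4me3 values. This stretch was chosen for display after the values were seen. Of the 4 measured genes on each side, H3K4me3 changes at 60 min ran from -0.33 at *VPS20* to 0.11 at *IRC21*, and their 0 min signal from 4.43 to 6.93. *SDD2*, whose start faces that of *RCO1* across 508 bases, had 5.02, 5.06, 5.38 and 4.91 at the 4 times. H3K36me3 changes of the 8 genes ran from -0.75 to -0.30, a range that holds the -0.54 of *RCO1*. The 3' end of *RCO1* overlaps YMR075C-A on the opposite strand over 349 bases, 17.0% of its length, and immunoprecipitated DNA cannot be assigned to a strand. *PDS5*, the next gene downstream in R64, was not analysed here.

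**Figure D4:**
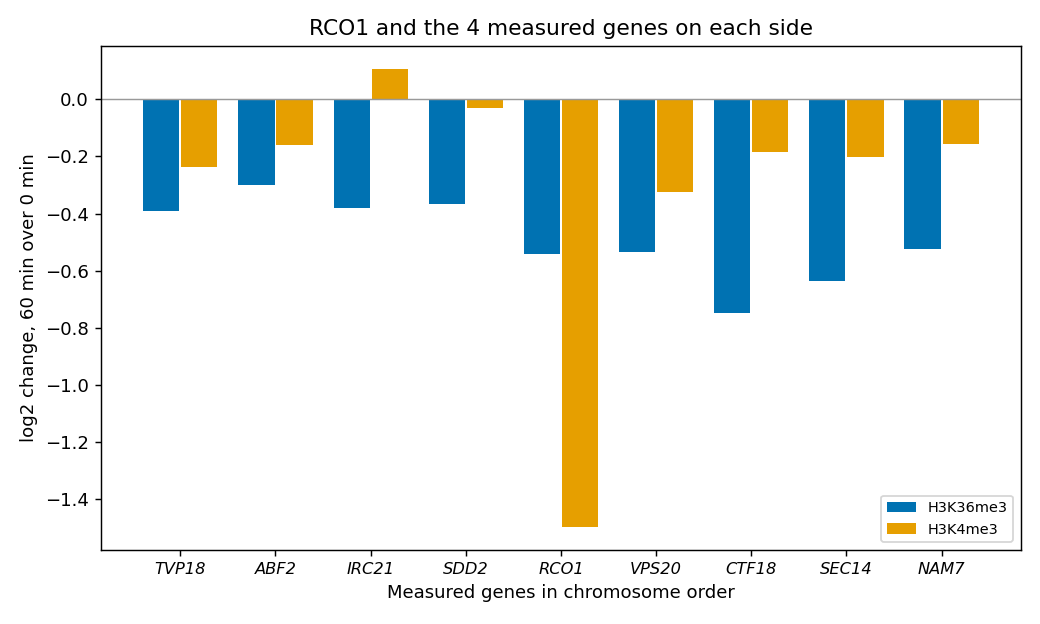
The log2 change at 60 min over 0 min of H3K36me3 (blue) and H3K4me3 (orange) at *RCO1* and the 4 measured genes on each side in chromosome order; bars start at 0. The H3K4me3 bar of *RCO1* reaches -1.50, while those of its neighbours lie between -0.33 and 0.11.

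Counted as a group, the 9 genes had a median H3K36me3 change close to that of all genes. Of the 9, 4 were lower by 1.5-fold or more at 60 min than at 0 min (*SET2*, *GIS1*, *RPD3* and *SIN3*), where 56.9% of 4861 genes were. All 9 were lower by some amount, as were 95.2% of genes. Their median change was -0.57, against -0.65 for all genes, and 5 of 9 stood above the median gene. At 20 min, 3 of 9 were lower by 1.5-fold or more (*SET2*, *EAF3* and *SIN3*), where 31.5% of genes were, and 2 of 9 stood 1.5-fold or more above the median gene (*RPH1* and *RCO1*), where 5.6% of genes did. *SET2* was the 1 member at least 1.5-fold below the median gene at 20 min, where 5.78% of genes were. With the scaling to the lowest 5% of genes, 4 of 9 were lower at 60 min, where 54.8% of genes were, and the member median was 0.03, against -0.04 for all genes.

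In H3K4me3, 2 of 9 members (*RCO1* and *GIS1*) were lower by 1.5-fold or more at 60 min, where 1.2% of 4826 genes were. *RCO1* was the 1 member past that fold relative to the median gene, where 0.332% of genes were, and *GIS1* stood at -0.44 there. All 9 were lower by some amount, as were 88.7% of genes. The median change was -0.24, against -0.18 for all genes, and *SET2* was the 1 member above the median gene. With the scaling to the lowest 5% of genes, 4 of 9 were lower, where 22.8% of genes were, and the member median was 0.05, against 0.11 for all genes. At 20 min all 9 members were lower by some amount as deposited, where 67.4% of genes were, with changes between -0.33 and -0.04. That count was 7 of 9 with the scaling to the lowest 5% of genes, where 51.4% of genes were lower. Between 40 and 60 min all 9 had a negative H3K4me3 change again, as did 96.4% of genes, with a member median of -0.30 against -0.18 for the median gene.

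**Figure D5:**
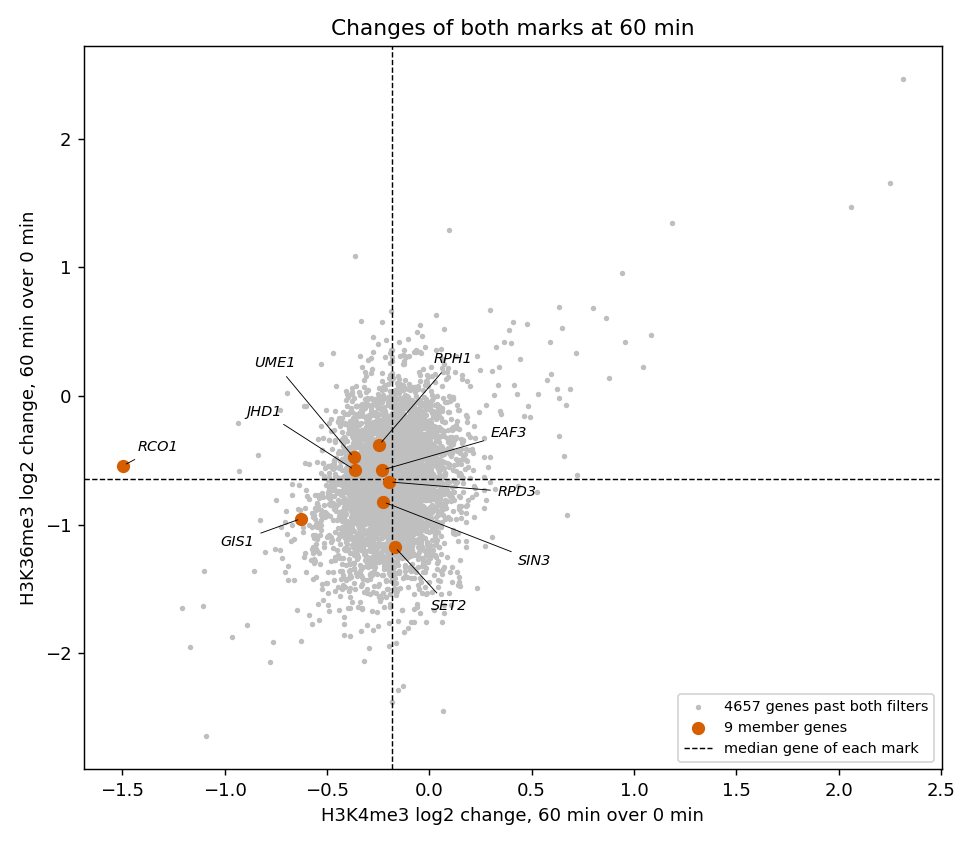
H3K36me3 (vertical) against H3K4me3 (horizontal) log2 change at 60 min over 0 min for 4657 genes past both filters (grey) and the 9 genes described (orange), with dashed lines at the median gene of each mark. *RCO1* lies alone at the left, at -1.50 in H3K4me3 and -0.54 in H3K36me3, *GIS1* lies low in both, and *SET2* lies low in H3K36me3 at -1.17.

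The balance of the marks shifted most at *RCO1* and *SET2*, in opposite directions. The log2 ratio of H3K36me3 to H3K4me3 on *RCO1* was -1.86, -1.31, -1.11 and -0.85 at the 4 times, and its difference at 60 min of 1.00 was at percentile 99.9 of 4657 genes. On *SET2* the ratio was -1.02, -2.03, -1.83 and -2.03, and the difference of -1.01 was at percentile 8.81. The median gene had a difference of -0.47, close to that of *RPD3*. The scale between the marks is arbitrary, so the sign of a ratio has no meaning of its own, and its rank among genes is what is read.

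The order of deposited signal at 0 min was *SIN3*, *SET2*, *RPD3*, *EAF3*, *GIS1*, *UME1*, *RPH1*, *JHD1* and *RCO1* for H3K36me3, between 3.50 and 0.585. For H3K4me3 it was *SIN3*, *EAF3*, *SET2*, *RPD3*, *JHD1*, *UME1*, *GIS1*, *RPH1* and *RCO1*, between 7.25 and 2.12. With no replicates it cannot be said which neighbours in these orders differ. Whether the signal was divided by gene length is not stated. Across 5115 genes with a length, signal at 0 min and length had a Spearman's rho of 0.23 for H3K4me3 and 0.22 for H3K36me3. Whether the order of the members follows length was not tested. *SIN3*, at 4611 bases, is the longest member, at percentile 98.3. *EAF3*, at 1206 bases, is the shortest, and it stands next after *SIN3* in the H3K4me3 order.

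In position, the members shared little. *RPH1* and *JHD1* lie on chromosome V, *EAF3* and *UME1* on chromosome XVI, and the others on a chromosome each, with *RCO1* the 1 member that overlaps another gene in the R64 table. For 6 of the 9, the upstream neighbour is divergent, so that the starts of both genes face each other. They are *SET2* with the sterol-pathway gene *ERG20*, *RPH1* with *CCA1*, *JHD1* with *RSM18*, *RCO1* with *SDD2*, *EAF3* with *YME1* and *SIN3* with the RNAPII subunit gene *RPB11*. Of the 18 nearest neighbours, 15 had values. Their H3K36me3 changes at 60 min lay between -1.05 (*RPB11*) and -0.07 (*MSH6*, downstream of *GIS1*), with a median of -0.41. *SET2* was at -1.17 and *ERG20*, across 585 bases, at -0.40. In H3K4me3 these neighbours lay between -0.43 (*ADK2*, downstream of *RPH1*) and 0.01 (*YME1*), with a median of -0.13. *UME1* lies next to *SPP1*, a COMPASS subunit gene, in tandem, and the H3K4me3 change was -0.37 at *UME1* and -0.01 at *SPP1*.

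Genes of related complexes are set beside these as context, with no test of a difference. All 9 genes of Rpd3L-specific subunits had lower H3K36me3 at 60 min, as did 95.2% of all genes, with a median of -0.75. By 1.5-fold or more, 7 of 9 were lower, where 56.9% of all genes were. They ran from *CTI6*, a PHD-finger subunit, at -1.13 to *ASH1*, a repressor of mating-type switching, at -0.12. In H3K4me3 their median was -0.16, from *CTI6* at -0.28 to *ASH1* at 0.24. Of the 10 measured genes of NuA4 other than *EAF3*, 7 were lower by 1.5-fold or more in H3K36me3, where 56.9% of all genes were, with a median of -0.82. In H3K4me3 their median was -0.24, and 0 of 10 were past that fold, where 1.2% of all genes were. They ran from *YAF9* at -1.07 to *EAF7* at -0.28 in H3K36me3, and from the scaffold gene *EAF1* at -0.57 to *YNG2* at -0.01 in H3K4me3.

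The genes of COMPASS and the H3K4 demethylase Jhd2 had a higher H3K36me3 median, -0.25 over the 7 past the filter, and 1 of 7 was lower by 1.5-fold or more, where 56.9% of all genes were. *JHD2* itself fell below the H3K36me3 filter, with a 0 min signal of 0.168 and a 60 min change of -0.91. The 7 genes past the filter ran from *SWD3* at -0.76 to *SHG1* at -0.06. The change was -1.17 at *SET2* and -0.56 at *SET1*, the H3K4 methyltransferase gene. In H3K4me3 the 8 past the filter had a median of -0.19, from *SET1* at -0.33 to *SPP1* at -0.01. Of 10 other genes of the K36 pathway, which act in the kinases, elongation factors and remodellers around Set2, 6 were lower by 1.5-fold or more in H3K36me3, which is near the 56.9% of all genes, with a median of -0.67. The kinase subunit gene *CTK3* was lowest at -1.12, and *SPT6*, which encodes a histone chaperone that Set2 needs, highest at -0.14. Their H3K4me3 median was -0.17, from *BUR2* at -0.55 to *IOC2* at -0.06. Scaled to the lowest 5% of genes, the 60 min H3K36me3 medians were -0.15 (Rpd3L), -0.22 (NuA4), 0.36 (COMPASS, without *JHD2*) and -0.06 (other pathway genes). The H3K4me3 medians of these 4 lists, in that order and with *JHD2* kept, were 0.14, 0.05, 0.11 and 0.13.

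The genes with the most similar profiles were found by Euclidean distance over 8 log2 levels, 4 times of both marks, among 4657 genes. For *SET2* they were *BDP1*, *MNP1* and *TRR1*, at distances of 0.237, 0.253 and 0.275, where the median gene was at 1.99. *BDP1*, a subunit gene of the RNA polymerase III factor TFIIIB, had H3K36me3 of 2.96, 1.53, 1.71 and 1.23. For *RPH1* they were *HSP78*, *YBT1* and YKL066W, at 0.291, 0.326 and 0.356, where the median gene was at 1.68. *YBT1* had H3K36me3 of 0.772, 1.17, 0.919 and 0.724, also highest at 20 min. For *RCO1* the nearest were *KIN82*, *RSF2* and YBR196C-A, at 1.20, 1.22 and 1.25, where the median gene was at 4.10. Their 60 min H3K4me3 changes were -0.36, -0.46 and -0.57, against -1.50 at *RCO1*. In H3K36me3 at 20 min they stood at 0.16, -0.25 and 0.07, against 0.42 at *RCO1*. No gene came as close to *RCO1* as those near *SET2* or *RPH1*, but the median gene was also farther from *RCO1*.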

How the data were processed

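The deposited table gives linear signal per gene in 8 columns, which the file headers name by mark and time. Bowtie2, SAMtools and bedtools, and the builds sacCer3 and ASM294v2, are listed in the submitters' processing notes without versions or roles. Division of the signal by input, gene length or spike-in is not stated. Columns were assigned to the immunoprecipitated libraries. Of 5222 lines, 3 were blank and 1 had no values. Names and coordinates came from the R64 gene table, which matched 5115 genes.

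Changes are log2 of (level + pseudocount) at the later time over the same at 0 min, so that the 3 later times share 1 library per mark. The pseudocount was 1% of the median 0 min level, 0.0491 for H3K4me3 and 0.0108 for H3K36me3, and understates changes of low genes. Comparisons across genes used those with a mean level of at least 25% of the median mean, 4826 for H3K4me3 and 4861 for H3K36me3. A percentile is the share of genes below a value. The 1.5-fold threshold counts genes and is no test.

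Members and lists were chosen with earlier results of these data known. Named genes are the members, their neighbours, the extremes of each other list and the 3 genes nearest *SET2*, *RCO1* and *RPH1*. Genes flanking or ranking next to *RCO1* were added after its value was seen, and *FPR1* as a check of the labels. Planned promoter and protein sequence comparisons were not run. Steps were tested on simulated data, with Python 3.11.15, pandas 2.3.3 and SciPy 1.17.1.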

Additional observations from a re-analysis of the deposited data

How the results depend on the processing

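The pseudocount (0.1% or 10% of the median), no filter and a background without overlapping genes left the member medians at 60 min within 0.1 log2 units. With column totals set to that of 0 min, the medians were 0.088 for H3K36me3 and -0.072 for H3K4me3, and with the lowest 5% of genes held constant 0.027 and 0.052. Under these scalings 0 of 9 members were lower by 1.5-fold or more in H3K36me3, where 6.97% (totals) and 8.74% (lowest 5%) of genes were, and 1 in H3K4me3, where 0.352% and 0.228% were. With totals, 6 of 9 members were higher in H3K36me3, as were 52.0% of genes: *RPH1* (0.29), *UME1* (0.19), *RCO1* (0.12), *EAF3* (0.09), *JHD1* (0.09) and *RPD3* (0.0013). Where the 0 min library was left out and 60 min was set against 20 min, the H3K36me3 median was -0.29, which is -0.059 relative to all genes, with 2 members past the fold (11.0% of genes), and 1 in H3K4me3 (0.85%). Where the 60 min library was left out and 40 min was set against 0 min, the medians were -0.37 for H3K36me3 and -0.064 for H3K4me3, with 2 members (27.5% of genes) and 1 (0.0829%) past the fold. A pseudocount of 10% also left 1 member in H3K4me3 (0.684% of genes). The causes were not tested, and neither was a scale factor moving every gene alike. Both scalings set the totals or the lowest genes to their 0 min value by construction, so they cannot test such a factor. Depth is unknown. No paired analysis was possible because each mark and time has 1 library.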
